A study of Mus musculus with 12 samples.

Results

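The genes described here are 37 genes of the unfolded protein response and the integrated stress response, taken by mouse symbol from the 54232 genes of a count table. They were kept as 2 lists: 20 chaperones, folding enzymes, degradation factors and sensors of the endoplasmic reticulum (ER), and 17 genes of the integrated stress response around the transcription factor ATF4. RNA was sequenced from RAW 264.7, a line of mouse macrophages. Cells of 3 genotypes were compared (wild type, Ing4-/- and Socs1-/-), each untreated or exposed to 100 ng/ml lipopolysaccharide (LPS) for 3 h, with 2 libraries in each of the 6 groups. ING4 is a chromatin reader and SOCS1 an inhibitor of cytokine signalling, and the labels do not say how the knockouts were made or whether a genotype is 1 clone or several.

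Secretory proteins fold in the ER with the help of chaperones such as BiP (the product of Hspa5). When unfolded protein builds up, the sensors IRE1, ATF6 and PERK are activated. IRE1 splices the mRNA of XBP1, and ATF6 is cleaved to an active factor. Both factors raise chaperone and degradation genes, many through a promoter motif called the ER stress response element. PERK phosphorylates the initiation factor eIF2 alpha, which lowers general translation and favours translation of ATF4. Other kinases, among them PKR and GCN2, feed into the same step, which is why the ATF4 branch is called the integrated stress response. LPS, from the outer membrane of Gram-negative bacteria, is sensed in macrophages by TLR4, and the cytokines they then secrete pass through the ER. Splicing of XBP1, cleavage of ATF6 and phosphorylation of PERK and eIF2 alpha are not measured by gene counts.

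All 37 genes passed the filter on low counts and were among the 12771 genes tested, with 16 to 131511 counts in a library. Libraries held between 17250815 and 24377950 counts, and levels are given as CPM, which scales each count by its library's size after TMM normalisation. Whether libraries of 1 group are separate cultures is not in the labels, so p-values here measure the spread between these samples alone. In bulk RNA, fewer cells of a kind and less RNA per cell cannot be told apart. Counts of the targeted genes did not check the genotypes: Ing4 had 2 to 10 counts in wild type and 6 to 29 in its knockout. Untreated, Socs1 had 4 and 11 counts in wild type and 7 and 7 in its knockout. After LPS Socs1 had 9.08 and 9.08 CPM in wild type and 2.73 and 7.14 CPM in its knockout, lower but not absent. Of the macrophage markers, Csf1r, Cd68, Lyz2 and Cd14 had at least 546 CPM in every library, and Mertk was at 0 in at least 1 of them. All 4 epithelial markers were at 0, 3 of 4 fibroblast markers and 5 of 6 T and B cell markers were too, and the others of these had at most 3 counts. Of the neutrophil markers, S100a8 reached 3.23 CPM at most and S100a9, Ly6g and Mpo were at 0. Of the LPS-treated Socs1 knockout libraries, library 1 stood apart from library 2: 20.9% of 10652 genes with at least 10 counts in every library were lower in library 2 by more than 0.5 on the log2 scale and 20.0% were higher. Each of those shares was between 4.02% and 15.9% in the other 5 groups. Some results that rest on Socs1 knockout LPS library 1 are given with and without it. Without it, LPS library 2 alone is set against both untreated Socs1 knockout libraries. Differences between library numbers then enter the Socs1 knockout changes with LPS.

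Promoter sequence was available from RefSeq (build GRCm38.p6) for 33 of the 37 genes, as windows of 300 bases from 250 before to 50 after the annotated start. The ER stress response element was searched on both strands as CCAAT, a gap of 9 bases and CCACG. It was present in 7 of the 17 ER genes with a window (Hspa5, Hsp90b1, Calr, Canx, Pdia6, Dnajc3 and Creld2) and in 0 of the 16 integrated stress response genes. Of all 27025 genes with a window 0.137% held it, and of the 9322 tested genes with a window 13 did. A related form, ATTGG, a gap of 1 base and CCACG, stood in Herpud1 and in 0.0444% of all windows (0.107% of the tested genes with a window). These stretches are shown because most of these genes varied together among the knockout libraries below. They are printed 5′ to 3′ on the strand of the gene, with the fixed letters of the motif in capitals; where the motif lies on the opposite strand it reads CGTGG, gap, ATTGG.
Hspa5, chr2:34772019-34772048, plus strand: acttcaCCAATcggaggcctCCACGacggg
Hsp90b1, chr10:86705513-86705572, minus strand: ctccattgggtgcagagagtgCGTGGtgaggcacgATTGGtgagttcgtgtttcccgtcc
Calr, chr8:84847055-84847114, minus strand: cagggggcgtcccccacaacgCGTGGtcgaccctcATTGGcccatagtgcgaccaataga
Pdia6, chr12:17266470-17266529, plus strand: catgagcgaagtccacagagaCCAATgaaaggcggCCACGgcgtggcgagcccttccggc
Creld2, chr15:88819499-88819558, plus strand: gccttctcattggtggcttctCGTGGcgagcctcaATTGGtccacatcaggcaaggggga
Herpud1, chr8:94386352-94386411, plus strand: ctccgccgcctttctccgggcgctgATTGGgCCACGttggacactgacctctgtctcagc
Canx, chr11:50325780-50325839, minus strand: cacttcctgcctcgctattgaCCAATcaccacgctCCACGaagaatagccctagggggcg
Dnajc3, chr14:118937806-118937865, plus strand: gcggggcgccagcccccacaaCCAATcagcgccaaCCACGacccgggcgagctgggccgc
The match of Hspa5 lay 65 to 47 bases before the RefSeq start, and that of Calr, the farthest shown, 162 to 144 bases before it. Hsp90b1 held a second match, 212 to 194 bases before the start. Atf6, Manf, Hyou1 and Ppp1r15b had no window in the table.

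Other motifs were spread over both lists. TGATGNAA, a form of the C/EBP-ATF site that ATF4 dimers bind, stood in Herpud1, Trib3, Chac1, Asns and Nupr1 and in 4.51% of all windows. TGACGTCA, the cAMP response element, stood in Ppp1r15a alone among these genes and in 2.03% of all windows. TGACGTGG, a site bound by XBP1 and ATF6, stood in 0 of the 33 windows and in 0.714% of all. A site for NF-kB, searched as GGGA, a gap of 4 bases and CC, stood in 8 of them and in 22.9% of all. The stretches of Ppp1r15a and Asns are shown because Ppp1r15a was called with LPS in all 3 genotypes and Asns is a textbook ATF4 target; capitals mark TGACGTCA and the fixed letters of TGATGNAA.
Ppp1r15a, chr7:45526269-45526328, minus strand: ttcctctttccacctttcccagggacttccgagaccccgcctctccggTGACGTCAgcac
Asns, chr6:7693214-7693243, minus strand: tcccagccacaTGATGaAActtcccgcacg
A match describes letters in a window, and absence of one says only that these letters were not in this window.

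**Figure D1:**
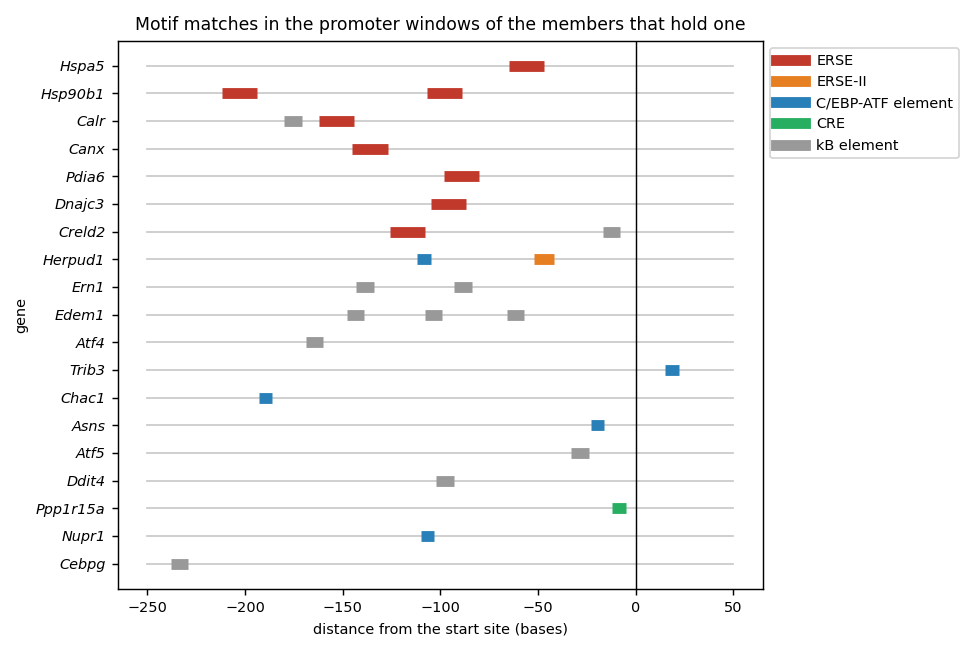
Positions of motif matches (coloured bars) in the windows of the genes that hold at least 1, in bases from the RefSeq start at 0. The ER stress response element (ERSE, red) is in 7 ER genes and its related form (ERSE-II, orange) in Herpud1, and none lies in a gene of the integrated stress response list.

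In untreated wild type cells the ER list spanned a wide range of levels per length of gene. Calr, a lectin chaperone that also buffers calcium, had 888 RPKM (CPM per kilobase of exon), Hspa5 had 801, Hsp90b1 (the chaperone GRP94) had 679 and the disulfide isomerase Pdia3 had 670. The sensors were far lower: Atf6 had 23.4 RPKM, Eif2ak3 (PERK) 6.83 and Ern1 (IRE1) 3.59. In the other list, Shmt2 and Psat1, enzymes of glycine and serine metabolism, had 119 and 109 RPKM and Atf4 had 106. Ddit3 (CHOP), the factor tied to death under lasting ER stress, had 6.69 RPKM, and Chac1, which degrades glutathione, had 1.34, the lowest of all. Summed over genes, the ER list made up 1.77% to 1.89% of all counts in untreated wild type and the integrated stress response list 0.216% to 0.218%. The reads of Ddit3 are uncertain, because a second gene row of that symbol covers 53.0% of its span on the same strand. That row had 0 counts in every library and has 105 exon bases, against 1713 for the row used. Rbm15b covers 12.1% of the span of Manf on the same strand, so reads of these genes could be split between them. The strand setting of the counting is not given, and without it reads of genes on opposite strands cannot be told apart. Dcaf1 (10553 counts over all libraries) lies opposite 79.5% of the span of Manf, 1810014B01Rik (1332 counts) opposite 30.1% of Hsp90b1 and Nup62 (35194 counts) opposite 13.0% of Atf5, so the values of these members are uncertain too. All these percentages are of whole gene spans with introns, and the overlap of exons, where most reads fall, was not measured.

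The number of genes called with LPS depended on whether libraries were paired by number. Without such a block, in wild type 1 of 37 genes rose (Ppp1r15a) and 1 fell (Eif2ak3) by edgeR's quasi-likelihood test at an adjusted p under 0.05, beside 1.89% and 1.0% of all tested genes. In the Ing4 knockout 3 rose (Ppp1r15a, Herpud1 and Nupr1) and 1 fell (Eif2ak3), beside 4.73% and 3.29%. In the Socs1 knockout 1 rose (Ppp1r15a) and 0 fell, beside 1.57% and 0.407%. At an unadjusted p under 0.05 there were 8, 10 and 7 genes, beside 22.6%, 28.2% and 17.0% of all genes. DESeq2 called 4, 5 and 4, beside 11.5%, 17.6% and 6.74%, and edgeR without a filter on low counts called 7, 9 and 4, beside 8.69%, 10.8% and 6.11%. For the 3 genotypes in this order the ER list had median log2 changes of 0.05, 0.05 and 0.13. For the integrated stress response list the medians were 0.23, 0.41 and 0.37, and for all tested genes they were 0.01, 0.00 and 0.01. With Socs1 knockout LPS library 1 left out, the Socs1 knockout medians were 0.41 (ER list), 0.64 (integrated stress response list) and -0.01 (all genes). Without Socs1 knockout LPS library 1, 4 genes were called higher and 2 lower in wild type, the Ing4 knockout had 5 and 2, and the Socs1 knockout had 4 and 0, beside 7.79% and 6.69%, 11.2% and 9.25%, and 9.03% and 6.73% of all genes. In that fit the added wild type calls were Chac1, Slc3a2 and Nupr1 (higher) and Atf6 (lower). Same-numbered libraries of a genotype deviated together across treatments, and with number within genotype as a replicate block edgeR called 7 genes higher and 3 lower in wild type, beside 8.28% and 5.9% of all genes. The Ing4 knockout then had 7 higher and 6 lower, beside 15.2% and 12.0%, and the Socs1 knockout 5 and 1, beside 4.39% and 1.63%. Hspa5, Herpud1, Atf4, Ppp1r15a and Nupr1 were called higher and Eif2ak3 lower in all 3 genotypes with the block. It also called Chac1 (wild type), Slc3a2 (wild type and Ing4 knockout) and Ppp1r15b (Ing4 knockout) higher. Lower calls were added for Atf6 and Sdf2l1 (wild type and Ing4 knockout) and for Pdia4, Edem1 and Psat1 (Ing4 knockout). Counted without a test, both LPS libraries were above both untreated ones for 16, 10 and 8 genes (wild type, Ing4 knockout and Socs1 knockout), beside 30.7%, 29.1% and 22.5% of all genes. They were below for 11, 7 and 2 genes, beside 30.7%, 28.6% and 20.0%.

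**Figure D2:**
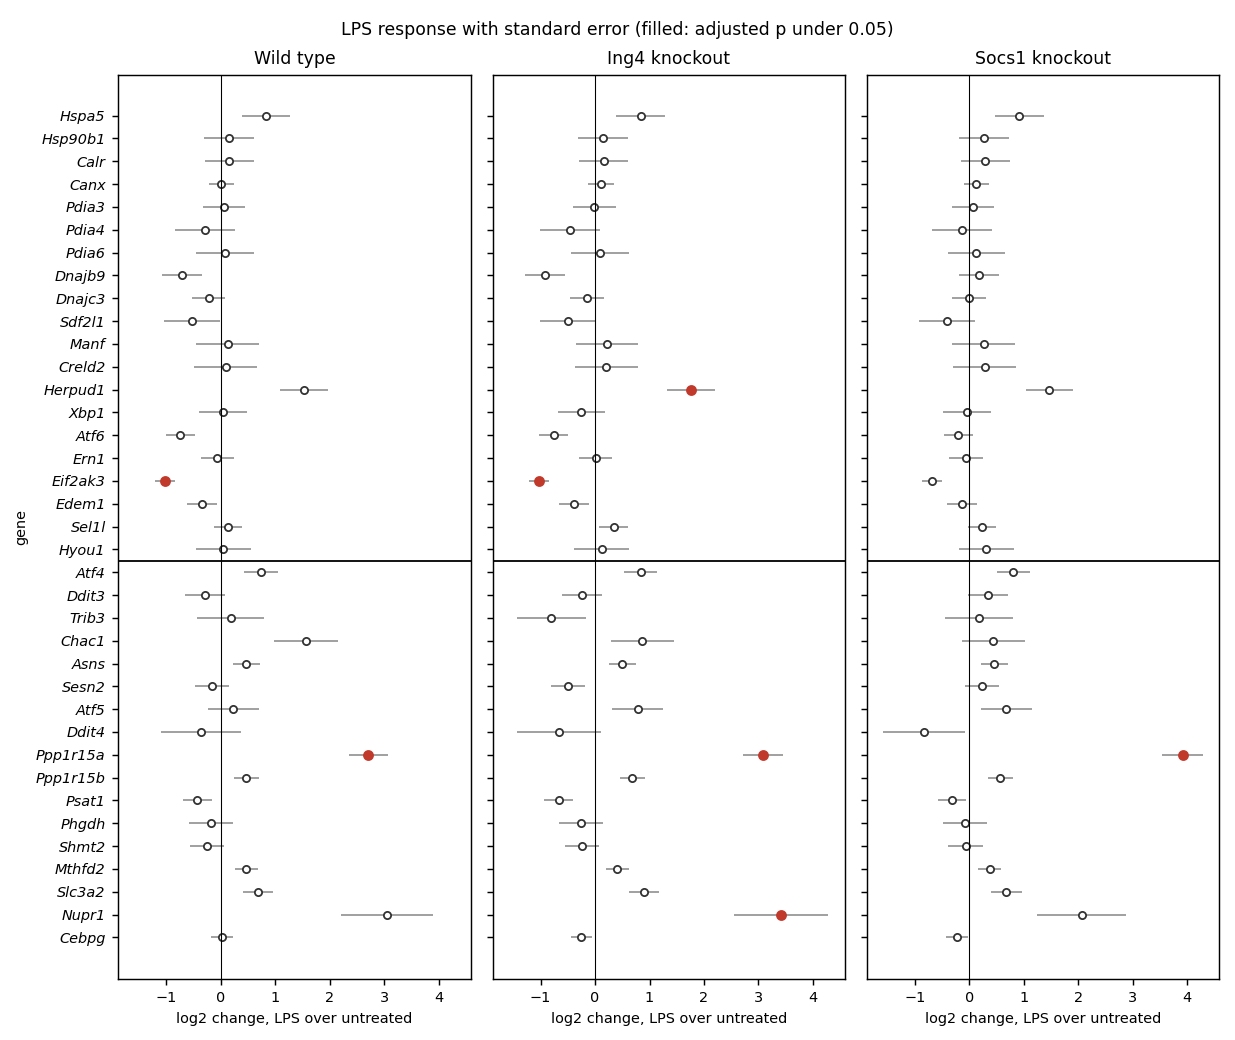
Log2 change from untreated to LPS for each of the 37 genes (point) with its standard error (bar), in 1 panel for each genotype; red filled points have an adjusted p under 0.05 by edgeR's quasi-likelihood test, and the horizontal line parts the ER list (above) from the integrated stress response list (below). Ppp1r15a lies at 2.71, 3.08 and 3.92 and Eif2ak3 at -1.03, -1.02 and -0.68, and Hspa5 lies at 0.83, 0.84 and 0.92.

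Ppp1r15a (chr7:45522916-45526268, GRCm38) encodes GADD34, the inducible subunit that directs a phosphatase to eIF2 alpha and so restores translation. Its level was 19.5 and 27.3 CPM in untreated wild type and 145 and 161 CPM after LPS. In the Ing4 knockout it was 20.9 and 23.8 CPM untreated and 249 and 129 CPM after LPS. In the Socs1 knockout it was 19.3 and 17.5 CPM untreated and 208 and 352 CPM after LPS. Every LPS library was above every untreated library, and the 6 untreated libraries lay close together. In wild type the log2 change was 2.71 (SE 0.356, 6.55-fold, adjusted p = 0.0076). It was 3.08 (SE 0.362, 8.44-fold, adjusted p = 0.0032) with Ing4 knocked out and 3.92 (SE 0.376, 15.2-fold, adjusted p = 0.0015) in the Socs1 knockout. The Socs1 knockout response exceeded that of wild type by 1.21 on the log2 scale (SE 0.476), with an unadjusted p of 0.032 and an adjusted p of 1.0, so this difference did not pass the test. In wild type the call was lost without the first or the second untreated library (adjusted p = 0.12 and 0.07) and lay at the threshold without the second LPS library (0.05), with changes of 2.49, 2.96 and 2.64. In the Ing4 knockout it lay at the threshold without the first untreated library (2.99, adjusted p = 0.05) and was lost without both second Ing4 libraries (3.57, adjusted p = 0.053).

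Ppp1r15b, the constitutive partner that serves the same phosphatase, had 150 and 177 CPM in untreated wild type and 223 and 229 CPM after LPS. Its log2 changes were 0.47, 0.68 and 0.57 in the 3 genotypes (adjusted p = 0.26, 0.094 and 0.25). LPS libraries of Ppp1r15b lay above the untreated ones in each genotype, with Socs1 knockout LPS library 1 at 176 CPM close to the untreated 168 CPM. Without that library the changes in the Ing4 and Socs1 knockouts were 0.68 and 0.90. The latter sets LPS library 2 alone against both untreated libraries, so a difference between library numbers enters it. Within library numbers 1 and 2 of the Socs1 knockout the changes were 0.24 and 0.81. With the block the Ing4 knockout passed (0.69, adjusted p = 0.03).

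Eif2ak3 (chr6:70844515-70905245), the gene of PERK, moved the other way. It had 38.9 and 43.4 CPM in untreated wild type and 20.5 and 19.8 CPM after LPS. The values were 38.8 and 45.4 CPM against 19.8 and 21.8 CPM in the Ing4 knockout, and 36.2 and 40.0 CPM against 20.3 and 27.2 CPM in the Socs1 knockout. Untreated and LPS libraries did not overlap in any genotype. On the log2 scale it fell by 1.03 in wild type (SE 0.184, adjusted p = 0.028) and by 1.02 with Ing4 knocked out (SE 0.184, adjusted p = 0.018). The change of -0.68 (SE 0.183) in the Socs1 knockout had an adjusted p of 0.11, and 0.039 with the block on number within genotype. The Socs1 knockout response differed from that of wild type by 0.35 (SE 0.258), with an unadjusted p of 0.21. Each call was lost when any 1 of the 4 libraries it compares was left out, with changes of -1.11 to -0.97 for wild type (adjusted p = 0.13 to 0.19) and -1.13 to -0.90 for the Ing4 knockout (adjusted p = 0.071 to 0.12). They were lost too without both second Ing4 knockout libraries (-1.03 and -0.97, adjusted p = 0.084 and 0.29).

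Atf6 was also lower after LPS in wild type and the Ing4 knockout, without a call, and Ern1 was not separated by treatment. Atf6, the membrane-bound factor, had 225 and 206 CPM in untreated wild type and 126 and 131 CPM after LPS, and 239 and 286 CPM against 134 and 175 CPM in the Ing4 knockout. The groups did not overlap, but the changes of -0.74 and -0.76 had adjusted p of 0.16 and 0.11, and 0.025 and 0.017 once Socs1 knockout LPS library 1 was dropped. With the block on number within genotype they were 0.035 and 0.022. In the Socs1 knockout Atf6 had 261 and 219 CPM untreated, and its LPS libraries parted at 271 and 147 CPM. The change there was -0.20, and -0.71 with the second library alone (adjusted p = 0.065). Ern1 stayed between 19.7 and 39.0 CPM over all 12 libraries, with log2 changes of -0.06, 0.01 and -0.06. Xbp1, counted without regard to splicing, had log2 changes of 0.04, -0.25 and -0.04.

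Herpud1 (chr8:94386438-94395377), a membrane protein that assembles the ER degradation complex, was the ER list's largest positive change. It had 77.4 and 112 CPM in untreated wild type and 282 and 264 CPM after LPS. The levels were 77.1 and 44.9 CPM against 255 and 157 CPM in the Ing4 knockout, and 52.0 and 117 CPM against 187 and 281 CPM in the Socs1 knockout. LPS libraries were above untreated ones in all 3 genotypes. The log2 change was 1.76 (SE 0.443, adjusted p = 0.047) in the Ing4 knockout. That was the only genotype in which edgeR with the filter on low counts and no block called it. It was 1.53 (SE 0.439, adjusted p = 0.097) in wild type and 1.47 (SE 0.439, adjusted p = 0.15) in the Socs1 knockout, and the differences of the knockout responses from wild type, 0.23 and -0.06 (each SE 0.608), did not pass. By DESeq2 it passed in all 3 (adjusted p = 0.0077, 0.001 and 0.018), and so it did by edgeR with the block on number within genotype (0.011, 0.0054 and 0.012). The edgeR call in the Ing4 knockout was lost without any 1 wild type or Ing4 knockout library (changes of 1.37 to 2.20, adjusted p = 0.074 to 0.22).

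Of the chaperones, folding enzymes and cofactors, 0 were called with LPS by edgeR with the filter on low counts and no block. Hspa5 was called with the block, and also without that filter. Hspa5 had 3380 and 3390 CPM in untreated wild type and 5380 and 6670 CPM after LPS. Its log2 changes were 0.83, 0.84 and 0.92 (each SE 0.448), and edgeR's adjusted p was 0.31, 0.25 and 0.34. In the Ing4 knockout it had 2400 and 1260 CPM untreated and 4470 and 2110 CPM after LPS, so the treatments overlapped, but within a library number Hspa5 was higher after LPS in all 6 pairs of the 3 genotypes, by 0.67 to 0.97 on the log2 scale. With the block on number within genotype the adjusted p was 0.01, 0.0074 and 0.0079, and without a filter on low counts it was 0.04, 0.03 and 0.026. For Hsp90b1, Calr, Canx, Pdia3, Pdia6, Manf, Creld2 and Hyou1 the log2 changes lay between -0.01 and 0.31 over the 3 genotypes, and 0 of these 8 genes was called. Manf and Creld2 are secreted or luminal stress proteins, and Hyou1 is a large chaperone that assists BiP. Pdia4, Dnajc3 and Sdf2l1, a further isomerase and a pair of BiP cofactors, lay between -0.53 and -0.01. With the block Sdf2l1 passed in wild type and the Ing4 knockout (-0.53 and -0.46, adjusted p = 0.046 and 0.045) and Pdia4 in the Ing4 knockout (-0.45, adjusted p = 0.022). Dnajb9, another BiP cofactor, had 21.2 and 22.2 CPM in untreated wild type and 13.1 and 13.4 CPM after LPS (log2 -0.71, adjusted p = 0.28). In the Ing4 knockout Dnajb9 had 11.5 and 28.4 CPM untreated and 9.41 and 11.7 CPM after LPS, which overlap (-0.92, adjusted p = 0.14). With Socs1 knocked out its mean was 12.9 CPM untreated (SD 2.77) and 14.6 CPM after LPS (SD 0.0896), with a change of 0.18 (adjusted p = 0.86). Of the degradation genes, the mannosidase-like Edem1 had changes of -0.34, -0.38 and -0.14 (adjusted p = 0.03 in the Ing4 knockout with the block), and the ligase scaffold Sel1l had 0.13, 0.34 and 0.23.

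**Figure D3:**
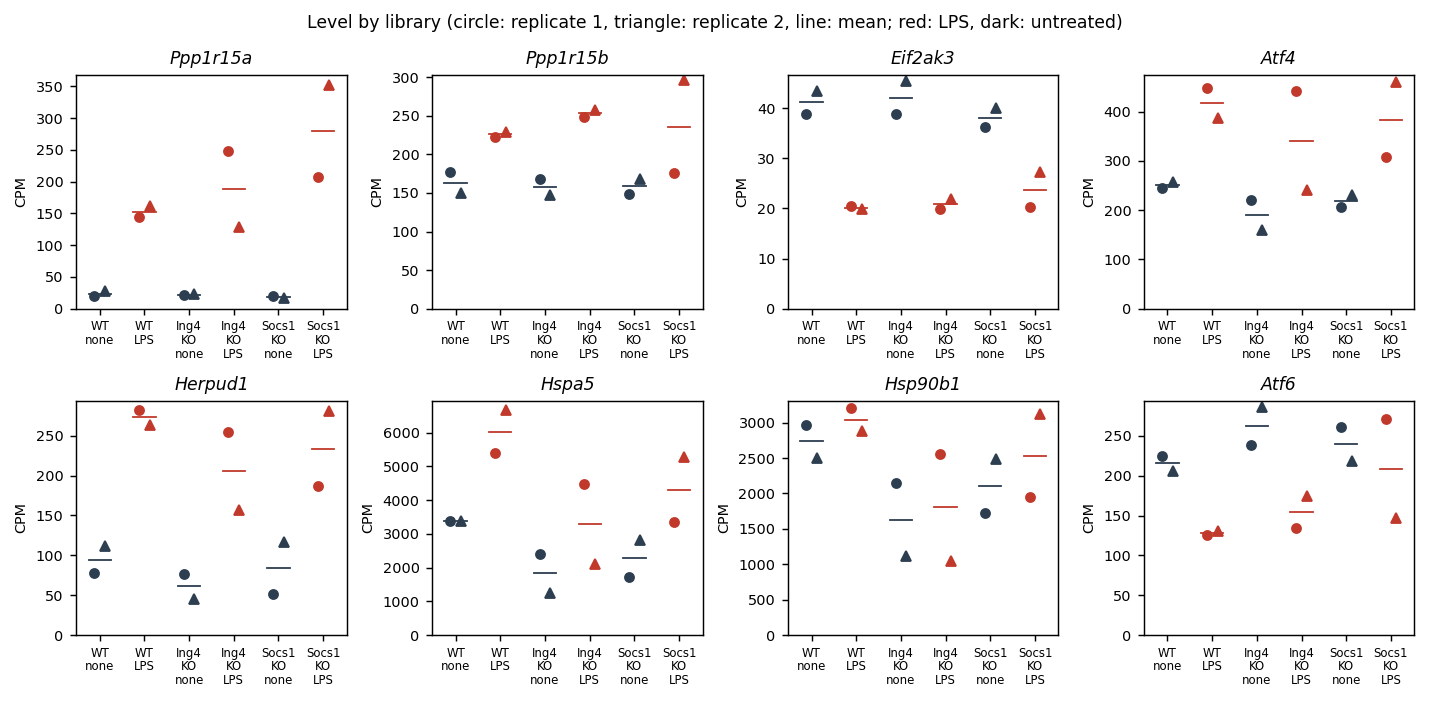
CPM of 8 genes in each library (circle, replicate 1; triangle, replicate 2; line, mean of the group), untreated ("none", dark) and after LPS (red), on axes that start at 0. Ppp1r15a rises from 17.5 to 27.3 CPM untreated to 129 to 352 CPM, Eif2ak3 is lower after LPS, and the libraries of each knockout part for Hspa5 and Hsp90b1 in both treatments.

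Among ATF4 and the genes downstream of it, the response was uneven. Atf4 had 244 and 257 CPM in untreated wild type and 447 and 387 CPM after LPS, 221 and 159 against 441 and 241 CPM in the Ing4 knockout, and 207 and 230 against 307 and 460 CPM in the Socs1 knockout. Its groups did not overlap in any genotype, with log2 changes of 0.74, 0.84 and 0.81 and adjusted p of 0.20, 0.11 and 0.23. With the block on number within genotype all 3 passed (adjusted p = 0.035, 0.02 and 0.043). Herpud1, Atf4, Asns, Ppp1r15a, Ppp1r15b and Slc3a2, 6 genes in all, had both LPS libraries above both untreated ones in each of the 3 genotypes, as did 12.8% of all tested genes. Eif2ak3 and Psat1 had both below, as did 11.5%. Asns, which makes asparagine, had changes of 0.47, 0.50 and 0.46. Slc3a2, the heavy chain of amino acid transporters, had 0.69, 0.90 and 0.68, with adjusted p of 0.046 and 0.018 in wild type and the Ing4 knockout with the block. Psat1 and Phgdh, of serine synthesis, had -0.43, -0.67 and -0.32 and -0.18, -0.25 and -0.08, and Psat1 passed in the Ing4 knockout with the block (adjusted p = 0.02). The mitochondrial folate enzyme Mthfd2 had 0.47, 0.41 and 0.37, and Shmt2 had -0.25, -0.24 and -0.07.

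Nupr1, a small stress-induced chromatin protein, had the widest spread. It had 12.1 and 15.8 CPM in untreated wild type and 77.5 and 153 CPM after LPS, and 10.7 and 6.91 CPM against 99.0 and 90.1 CPM in the Ing4 knockout. In the Socs1 knockout it had 5.42 and 17.8 CPM untreated, and 13.6 and 83.6 CPM after LPS, so the treatments overlapped. Within a library number it was higher after LPS in all 6 pairs of the 3 genotypes, by 1.32 to 3.7 on the log2 scale. The lowest of these was the first pair of the Socs1 knockout. Nupr1 was called higher in the Ing4 knockout (log2 3.42, SE 0.865, adjusted p = 0.049). The changes of 3.05 in wild type and 2.06 in the Socs1 knockout had adjusted p of 0.094 and 0.26. With the block these adjusted p were 0.0044 and 0.021. Within library numbers 1 and 2 of the Socs1 knockout the changes were 1.32 and 2.23. Dropping LPS library 1 alone would mix the difference between library numbers into the Socs1 knockout change. The call in the Ing4 knockout was lost without any 1 wild type, Ing4 knockout or untreated Socs1 knockout library (changes of 3.14 to 3.77, adjusted p = 0.058 to 0.22).

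Chac1 had 2.02 and 2.35 CPM in untreated wild type and 7.20 and 5.78 CPM after LPS, a log2 change of 1.57 (adjusted p = 0.16, 0.027 with Socs1 knockout LPS library 1 dropped and 0.032 with the block). Its changes were 0.87 and 0.44 in the Ing4 and Socs1 knockouts.

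Of the remaining members, Ddit3, Trib3, Ddit4, Sesn2, Atf5 and Cebpg were not called in any genotype, with or without the block. Ddit3 had 10.1 and 12.8 CPM in untreated wild type and 9.67 and 9.03 CPM after LPS, and its changes were -0.29, -0.24 and 0.34. Trib3, a pseudokinase induced by CHOP, had changes of 0.18, -0.80 and 0.18 at levels of 1.44 to 10.7 CPM. Ddit4 and Sesn2, inhibitors of mTORC1 signalling, had -0.36, -0.66 and -0.83 and -0.16, -0.50 and 0.23. The transcription factors Atf5 and Cebpg had 0.23, 0.78 and 0.68 and 0.02, -0.25 and -0.23.

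In the authors' deposited table for wild type, 3 of the 37 genes were among the 867 changed genes. That number equals 6.79% of the 12771 genes tested here. The genes in the authors' tables were not matched to the tested genes, so such percentages serve as a rough scale only. The authors' deposited table gave log2 values of 2.46 for Ppp1r15a (adjusted p = 1.4e-11), 1.34 for Herpud1 (adjusted p = 0.0082) and 2.25 for Nupr1 (adjusted p = 0.00044). Their other 4 deposited tables, of knockouts against wild type, held 0 of the 37. On the same scale, the sizes of these tables equalled 0.814% and 0.916% for the Ing4 knockout (untreated and LPS) and 0.579% and 1.43% for the Socs1 knockout.

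By the same test, 0 of the 37 genes was called between a knockout and wild type. All genes had shares called by edgeR of 0.141% and 0.102% in the Ing4 knockout, untreated and after LPS, and 0.047% and 0.0626% in the Socs1 knockout. DESeq2 called 0 of the 37 as well, beside 0.873%, 0.965%, 0.655% and 1.64% of all genes in the same order. At an unadjusted p under 0.05 there were 1 (Pdia6) and 3 genes (Pdia6, Trib3 and Psat1, all lower) in the Ing4 knockout and 1 (Ddit3, lower) and 2 (Ppp1r15a and Atf6, both higher) in the Socs1 knockout, beside 5.25%, 7.09%, 5.15% and 10.6% of all genes. Without a filter on low counts edgeR called 5 genes in the untreated Ing4 knockout (Pdia4, Pdia6, Sdf2l1, Manf and Creld2, all lower) and 4 after LPS (Pdia4, Pdia6, Manf and Trib3, all lower), beside 2.15% and 2.25% of all genes. In the Socs1 knockout it then called 1 untreated (Pdia6, lower) and 4 after LPS (Pdia6, Trib3 and Nupr1 lower, Ppp1r15a higher), beside 1.79% and 3.84%. After LPS Nupr1 had 13.6 and 83.6 CPM in the Socs1 knockout and 77.5 and 153 CPM in wild type, which overlap. Atf6, named above at an unadjusted p, had 271 and 147 CPM against 126 and 131 CPM. For both genes Socs1 knockout LPS library 1 lay farther from wild type than library 2. The fit without a filter was not repeated without library 1. Tested for a difference from the wild type LPS response, 0 of 37 passed for either knockout by edgeR or DESeq2, beside 0.0% of all genes by each. At an unadjusted p under 0.05 edgeR had 0 and 1 (Ppp1r15a, for the Socs1 knockout), beside 0.415% and 0.799%. For the Socs1 knockout the median difference in response was 0.13 (ER list), 0.07 (integrated stress response list) and 0.03 (all genes). Without Socs1 knockout LPS library 1 these medians were 0.42, 0.23 and -0.001.

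Both lists had negative medians in the knockouts. In untreated cells the median log2 difference from wild type was -0.61 for the ER list and -0.40 for the integrated stress response list with Ing4 knocked out. The Socs1 knockout had -0.41 and -0.22. After LPS the medians were -0.49 and -0.46 with Ing4 knocked out, against -0.29 and -0.24 with Socs1 knocked out, and all tested genes had medians of 0.01 to 0.02. Both libraries were below both wild type libraries for 21 of 37 genes in the untreated Ing4 knockout (20.1% of all genes) and for 21 in the untreated Socs1 knockout (20.4%). After LPS these counts were 24 in the Ing4 knockout (18.2%) and 14 in the Socs1 knockout (18.0%). The comparisons of both knockouts share the wild type libraries. Pdia6, a disulfide isomerase, had 1090 and 1110 CPM in untreated wild type, 634 and 248 CPM in the untreated Ing4 knockout and 425 and 705 CPM in the untreated Socs1 knockout. Its difference was -1.32 (SE 0.535, adjusted p = 0.87) in the Ing4 knockout and -0.96 (SE 0.531, adjusted p = 1.0) in the Socs1 knockout. The size of these medians depended on the libraries used. With both second Ing4 knockout libraries left out the Ing4 knockout medians were -0.30 and -0.20 untreated and -0.20 and -0.23 after LPS. Differences below 0 were then seen for 33 of 37 genes untreated and 29 after LPS, against 33 and 30 with all libraries. Without Socs1 knockout LPS library 1 the medians were 0.02 and -0.02 after LPS in the Socs1 knockout. There 19 of 37 genes were below 0, against 29 with all libraries.

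**Figure D4:**
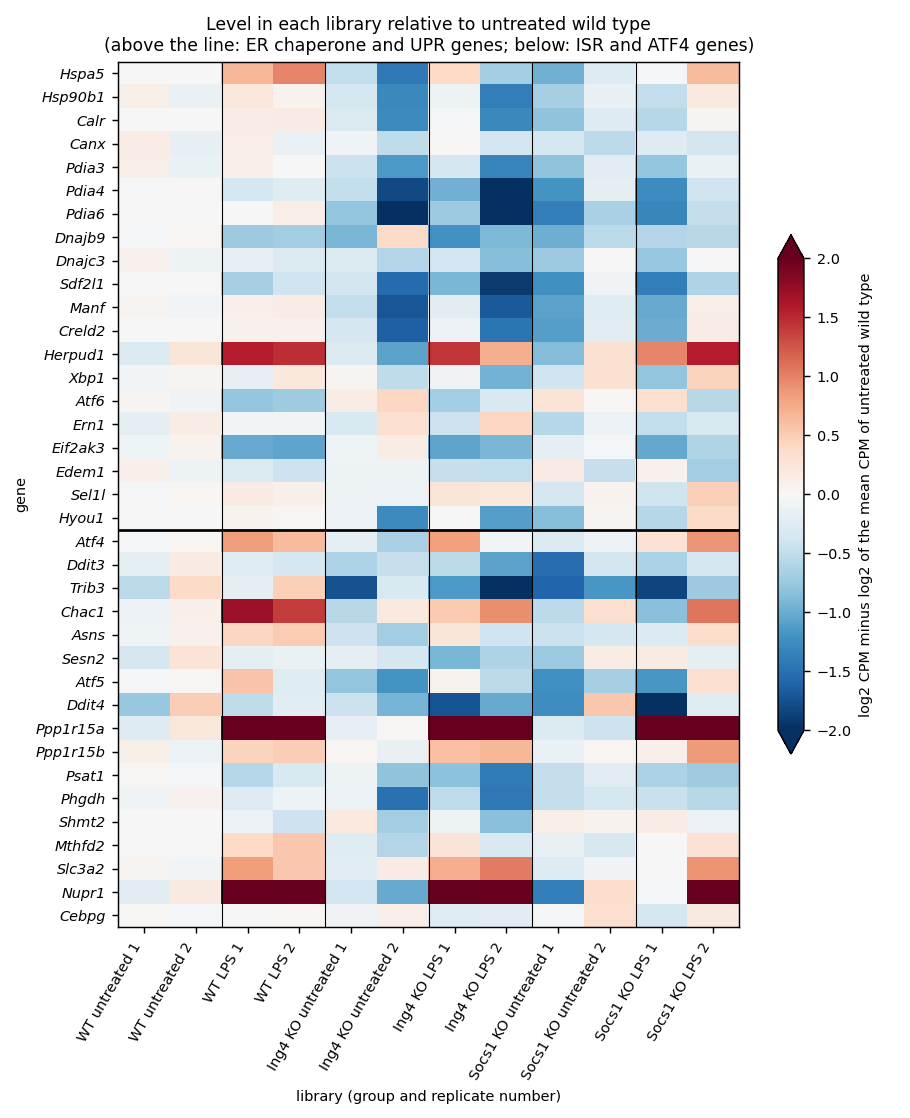
Level of each of the 37 genes (rows) in each of the 12 libraries (columns) as log2 CPM minus the log2 of the mean CPM of untreated wild type, with colours held at -2 and 2; the thick line parts the ER list (above) from the integrated stress response list (below). Most ER chaperones are blue in the second Ing4 knockout library and the first Socs1 knockout library of both treatments, and Ppp1r15a and Herpud1 are red after LPS.

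The ER chaperones varied most between libraries of one knockout, in the same way with and without LPS. Summed over the ER list, wild type libraries held 17400 and 16200 CPM untreated and 19700 and 20400 CPM after LPS. As a share of all counts, without TMM scaling, the list made up 1.89% and 1.77% untreated and 1.76% and 1.74% after LPS. The share thus did not rise with LPS as the summed CPM did. The first and second Ing4 knockout libraries held 13200 and 7760 CPM untreated and 16200 and 8310 CPM after LPS. The Socs1 knockout libraries held 10000 and 14300 CPM untreated and 12400 and 18600 CPM after LPS. The second Ing4 knockout library was thus the lowest of all in both treatments, and the first Socs1 knockout library was the lower of its pair in both. The median log2 difference of the ER list, second library over first, was -0.76 (untreated) and -0.94 (LPS) for the Ing4 knockout. For the Socs1 knockout it was 0.64 and 0.67. In wild type it was 0.00 in both treatments, and over all genes it lay between -0.01 and 0.02 in the 6 groups.

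Hspa5 showed the pattern with 2400 and 1260 CPM in the untreated Ing4 knockout, 4470 and 2110 CPM after LPS, 1730 and 2820 CPM in the untreated Socs1 knockout and 3340 and 5270 CPM after LPS. Manf, uncertain for the overlaps given above, had 258 and 111, 315 and 113, 172 and 308, and 180 and 395 CPM in the same order. In wild type both genes differed by 0.31 at most on the log2 scale between libraries of a treatment. Of the genes listed next, Herpud1 had a wild type difference of 0.53 untreated, past the limit used below. Xbp1 had 0.36 after LPS in wild type, and the rest differed by 0.31 at most there. In all, 12 of the 20 ER genes were lower in the second Ing4 knockout library by more than 0.5 and higher in the second Socs1 knockout library by more than 0.5, with and without LPS: Hspa5, Hsp90b1, Calr, Pdia3, Pdia4, Pdia6, Sdf2l1, Manf, Creld2, Herpud1, Xbp1 and Hyou1. Of the 17 integrated stress response genes 0 did so in all 4 groups, and of all 10652 genes 63 did (0.591%). After LPS alone the lists were closer: 12 of 20 ER genes and 10 of 17 integrated stress response genes were lower by more than 0.5 in the second Ing4 knockout library (8.09% of all genes), and 14 and 11 were higher by more than 0.5 in the second Socs1 knockout library (20.0%). Untreated, these counts were 12 and 5 (8.82%) and 13 and 6 (9.86%). The Ing4 knockout part of the pattern alone was met by 12 ER and 3 integrated stress response genes and 3.69% of all genes, and the Socs1 knockout part alone by 13, 4 and 6.28%. The limit of 0.5 was chosen after the values were seen, and with 1 library against 1 the difference has no test. Of the ER genes outside this set, Dnajc3 had differences of -0.30 and -0.47 (Ing4 knockout), 0.74 and 0.76 (Socs1 knockout), past the limit in the latter alone, and Canx had -0.44, -0.40, -0.18 and -0.10. Dnajb9 went the other way in the Ing4 knockout, with 1.31 untreated and 0.31 after LPS, and had 0.44 and 0.01 in the Socs1 knockout. The sensors Atf6, Ern1 and Eif2ak3 and the degradation genes Edem1 and Sel1l were outside it too; Atf6 had 0.26 and 0.38 (Ing4 knockout), -0.25 and -0.89 (Socs1 knockout). Ern1 had 0.63 and 0.83, and 0.45 and 0.19, in the same order. Eif2ak3 lay between 0.14 and 0.43, Edem1 had 0.01, -0.04, -0.62 and -0.77, and Sel1l had -0.02, -0.05, 0.41 and 0.89.

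The genes with the ER stress response element printed above overlapped with this set in part. Hspa5, Hsp90b1, Calr, Pdia6 and Creld2 were in it, as was Herpud1 with the related form, and Canx and Dnajc3 were not. Pdia3, Pdia4, Sdf2l1 and Xbp1 were in it and held neither form in their windows. Of the 6 tested genes outside the lists that held the element, Syvn1, the ubiquitin ligase of ER degradation, met the same limits (-0.66 and -0.93 for the Ing4 knockout, 0.53 and 1.41 for the Socs1 knockout). Acacb, Adcy3, Alg12, Hnrnpa3 and Pan2 did not meet these limits. These 6 were singled out after their values were seen.

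In the integrated stress response list the libraries parted less evenly. The median difference, second over first, was -0.28 and -0.56 for the Ing4 knockout, and 0.25 and 0.61 for Socs1, beside 0.17 and 0.04 in wild type. Phgdh had 147 and 57.0 CPM in the untreated Ing4 knockout and 112 and 59.5 CPM after LPS, but 115 and 125, and 117 and 109 CPM in the Socs1 knockout. Slc3a2 had 157 and 203 CPM in the untreated Ing4 knockout, with the second library higher. The summed CPM of the 10 macrophage markers moved with the same libraries in the Ing4 knockout, from 13800 to 22400 untreated and from 15200 to 22500 after LPS. In the Socs1 knockout it was 13700 and 13000 untreated and 14700 and 14100 after LPS, and in wild type 12000 to 14000. Lyz2 made up the largest part of this sum in every library, at 6610 to 17000 CPM, and no other marker exceeded 3570 CPM. The sum thus does not show whether the 10 markers moved together. The part of these markers in the ER differences was not tested.

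**Figure D5:**
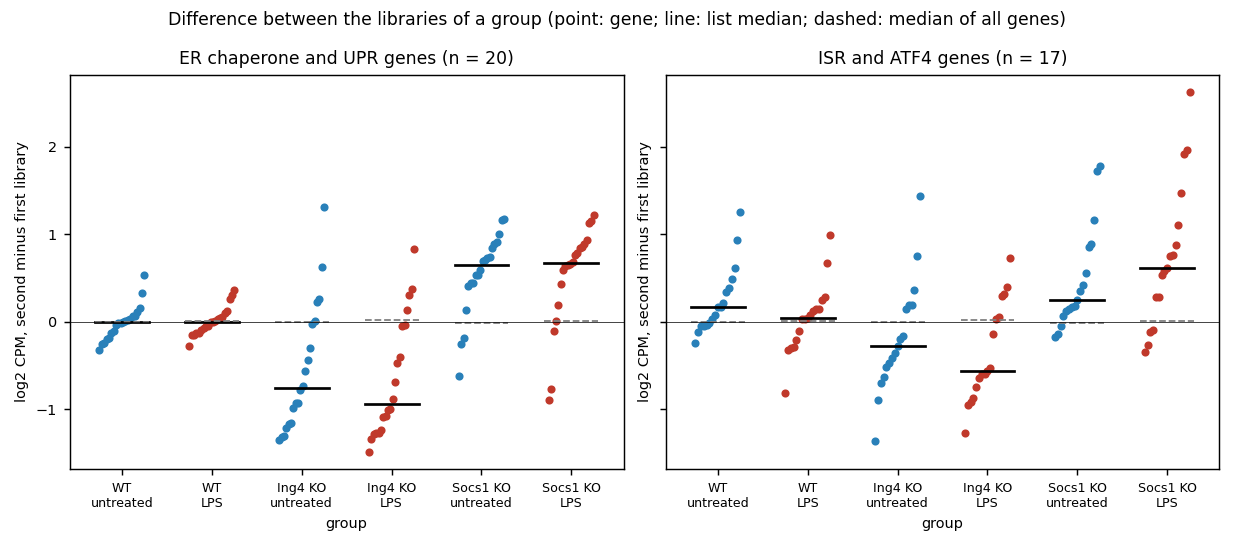
Log2 CPM of the second minus the first library of each group for every gene of the ER list (left) and of the integrated stress response list (right), with the list median (solid line) and the median of all genes with at least 10 counts (dashed line), untreated in blue and LPS in red. The ER medians are -0.76 and -0.94 for the Ing4 knockout, 0.64 and 0.67 for Socs1, and 0.00 in wild type.

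Related pathway genes outside the 37 were read against the shares of all genes called higher and lower: 1.89% and 1.0% (wild type), 4.73% and 3.29% (Ing4 knockout) and 1.57% and 0.407% (Socs1 knockout). Of 32 other ER folding and import genes, 20 of 21 other degradation genes that were tested, 22 other stress sensors and eIF2 factors, 12 cytosolic aminoacyl-tRNA synthetases and 11 of 13 cytosolic heat shock genes, 0 passed edgeR's test in any genotype. The fit with Socs1 knockout LPS library 1 dropped called larger shares of all genes, given above with the LPS calls. Some genes of these lists were called in it, and they are named as single genes, not as a result for a list. Among them were the folding proteins Erp29 and Cnpy3, lower in each genotype (log2 -0.71 and -0.60 in wild type). The eIF2 alpha kinase Eif2ak2 (PKR) was higher in each (1.93 in wild type). With all libraries none of these genes passed in any genotype (edgeR's adjusted p of 0.11 to 0.65), and in the Socs1 knockout their treatments overlapped. Socs1 knockout LPS library 1 had 56.9 CPM for Eif2ak2, below the untreated 63.9 and 86.3 CPM, and library 2 had 489 CPM. For Cnpy3 library 1 had 84.0 CPM, above the untreated 83.8 and 76.0 CPM, and for Erp29 463 CPM, between 485 and 354 CPM. Of 21 tested genes among 25 other ATF4 targets and amino acid genes, 2 rose in wild type, 1 rose in the Socs1 knockout, and 3 rose and 1 fell in the Ing4 knockout. Atf3, a repressor induced by many stresses and by TLR signals, had 45.6 and 60.3 CPM in untreated wild type and 551 and 834 CPM after LPS. Its log2 changes were 3.71, 3.13 and 3.00 (adjusted p = 0.004, 0.0056 and 0.0079). Jdp2, a related repressor, rose by 3.26 in wild type (adjusted p = 0.025) and by 4.28 with Ing4 knocked out (adjusted p = 0.0065). Tnfrsf10b, a death receptor, rose by 1.11 in the Ing4 knockout (adjusted p = 0.045), and the glycine transporter Slc6a9 had a change of -1.33 that lay at the threshold (adjusted p = 0.05). The cystine transporter Slc7a11 had 40.2 and 33.4 CPM in untreated wild type and 315 and 155 CPM after LPS (log2 2.68, adjusted p = 0.11, and 0.026 with Socs1 knockout LPS library 1 dropped).

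In these other lists, both knockout differences past 0.5 in both treatments, met by 0.591% of all genes, were seen for 1 of 31 other folding genes (Dnajb11, a BiP cofactor with 281 and 184 CPM in the untreated Ing4 knockout and 190 and 302 CPM in the untreated Socs1 knockout), 1 of 20 degradation genes (Syvn1) and 1 of 19 ATF4 targets (Atf3). They were seen for 0 of 22 sensors and eIF2 factors, 0 of 12 tRNA synthetases and 0 of 11 heat shock genes. In the untreated Ing4 knockout alone, the second library was lower by more than 0.5 for 11 of 21 other ATF4 targets (median -0.51) and 10 of 32 folding genes (median -0.21), beside 8.82% of all genes. After LPS there were 7 and 8, beside 8.09%.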

How the data were processed

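The authors deposited 1 table of read counts per gene for the 12 libraries, from a stranded mRNA kit; reads were single and 75 bases long, per the labels. The submitters' processing notes list FastQC, HISAT, StringTie, HTSeq and DESeq2, and give neither versions nor the strand setting of the counting. They also name GRCh38, yet the identifiers are those of mouse genes; 1278 of 1345 positions printed by the authors (95%) match GRCm38. A treatment protocol names HEK293T, while the samples are labelled RAW 264.7. The log2 values and adjusted p-values in the authors' deposited tables are theirs. Every column matched a sample (0 unmatched).

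Genes were kept by filterByExpr (12771), and 1 model with 6 group means was fitted in R 4.3.3 with edgeR 4.0.16 (TMM scaling, robust quasi-likelihood F-test, Benjamini-Hochberg adjustment over all tested genes, threshold 0.05). All adjusted p are edgeR's unless DESeq2 (1.42.0) or the authors are named. Standard errors (SE) were taken as log2 change / square root of F, without sign. The biological coefficient of variation was 0.289, and 3 counts correspond to 0.123 to 0.174 CPM. RPKM used exon lengths from GENCODE (GRCm38). Promoters came from RefSeq.

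The members, lists, motifs and tests were chosen with earlier results of these data known. Named genes are all 37 members, from each other list up to 4 called genes with the smallest p, and the targeted genes. Genes called only in an alternative fit, and other genes with the ER stress element, were named with their values in view. The labels number the libraries without saying what a number marks. First-minus-second differences of untreated and LPS libraries correlated across genes within each genotype (0.447, 0.601 and 0.565) but lay between -0.129 and 0.156 between genotypes, so pairing was read from the data within genotypes only. The block of number within genotype was planned as an alternative to the unblocked fit. Alternatives were DESeq2, other scalings, no filter on low counts, the compared groups alone, replicate blocks, each library left out and, added later, both second Ing4 knockout libraries left out; where a group keeps 1 library, it is assumed to vary like the others.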

Additional observations from a re-analysis of the deposited data

How the results depend on the processing

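With LPS, edgeR called 2 (wild type), 4 (Ing4 knockout) and 1 (Socs1 knockout) of the 37 genes. DESeq2 called 4, 5 and 4 of them. Without a low-count filter 7, 9 and 4 were called, and between knockouts and wild type 5 (Ing4, untreated), 1 (Socs1, untreated), 4 (Ing4, LPS) and 4 (Socs1, LPS), among them Pdia6 in all 4 (adjusted p = 0.00012, 0.025, 0.00016 and 0.019). With only the groups compared, 10, 4 and 0 were called. With 1 library left out the calls ranged from 0 to 6 (wild type), 0 to 7 (Ing4 knockout) and 1 to 4 (Socs1 knockout), and from 0 to 3 for the Socs1 knockout against wild type after LPS. The highest counts came without either LPS-treated Socs1 knockout library, and in wild type 0 were called without either untreated library or the second LPS library. With both second Ing4 knockout libraries left out, chosen after seeing the data, the counts were 1, 0 and 1. No direction of a called gene reversed. Upper-quartile scaling put the median LPS changes of the ER list at -0.07, -0.07 and -0.01 and those of all genes at -0.106, -0.129 and -0.129. A replicate block on the number gave 2, 3 and 1 calls, and Herpud1 in the Ing4 knockout lost its call (adjusted p = 0.054). With number within genotype as a replicate block the counts were 10, 13 and 6; it changed no LPS call other than those given in the report, and comparisons with wild type cannot be made with it. The cause of these changes was not tested.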
